A study of Mus musculus with 24 samples.

Results

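AKR is a mouse esophageal carcinoma cell line, and the comparison described here set AKR cells given a guide RNA against B2m (sgB2m) beside AKR cells given a non-targeting guide (sgNT). B2m encodes beta-2-microglobulin, the light chain that MHC class I heavy chains need to reach the cell surface, and the series compared tumour cells with and without it by RNA sequencing. The comparison used the 6 AKR libraries of the 24 in the series, 3 per guide, all from cells kept in culture in DMEM with serum and antibiotics, with total RNA made into strand-specific paired-end libraries. The other 18 libraries came from the lines MC38, LLC1 and Hepa1-6, labelled with the same 2 guides, and serve below only as a point of reference. The labels do not state how the guide was delivered, whether the edited cells were 1 clone or a pool, or whether the 3 libraries of a guide were separate cultures, so each p-value measures only the spread between these libraries. Of 28237 genes in the AKR table, 15882 reached log2 3.5 in 3 or more of the 6 libraries and were tested. Values are normalised counts, which are reads divided by 1 size factor per library, and a log2 value is log2 of that count plus 1. The filter took in 169 genes for which the third highest log2 value lay from 3.5 to under 3.6 and left out 217 genes for which it lay from 3.4 to under 3.5. Some genes passed only through the 3 libraries of 1 guide, so the filter itself set their direction. They include Trim69, Krt16, Zfp750, Gbp8, Fst and Bik, which passed through sgB2m alone, and Cxcl16, which passed through sgNT alone. Such genes also enter the list counts below.

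The gene groups that moved most in AKR belong to systems that are well described in other cells. NRF2 is a transcription factor that binds antioxidant response elements and drives enzymes that make glutathione and NADPH and detoxify reactive compounds. The unfolded protein response raises chaperones of the endoplasmic reticulum (ER) through ER stress response elements, and ATF4 drives amino acid transport and tRNA charging. Squamous epithelium, the lining of the esophagus, builds a keratin network and a cornified envelope as it differentiates, and rests on a basement membrane of laminins and collagens.

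The markers of the esophageal label were present in part. Of 10 squamous markers, 5 passed the filter. Krt5, Krt4 and Krt6a were not analysed here, Trp63, the regulator of the basal squamous layer, lay between 0 and 7.71 normalised counts, and Krt14 between 0 and 4.08. Tfap2a, Pax9, Grhl2, Krt13 and Sox2 were present at 988 to 1134, 554 to 689.5, 360.0 to 826, 189.5 to 476 and 193 to 408 normalised counts across the 6 libraries. E-cadherin (Cdh1) lay between 0 and 8.67, whereas the mesenchymal intermediate filament gene Vim lay between 59966 and 67107 and the simple epithelial keratin gene Krt8 between 13154 and 20129. Epithelial keratins and mesenchymal genes were thus both present in each library.

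The libraries held 28286900 to 32903553 counted reads. The sgB2m library numbered 1 differed from the other 2 sgB2m libraries by a median of 0.159 and 0.134 log2 units per gene, against 0.103 between those 2 and 0.101 to 0.113 among the sgNT libraries. Transcripts of the mitochondrial genome took 4.03% to 4.04% of the reads in sgB2m and 3.49% to 3.55% in sgNT, and their part in the results was not tested. B2m checked the labels: its normalised counts were 4694, 4096 and 4137 in sgB2m and 12476, 13147 and 12827 in sgNT, so each edited library was lower and still held B2m reads. The log2 fold change of B2m was -1.57 ± 0.054, SE, adjusted p = 2.25e-08. A transcript level does not measure the protein or show the edit. Cxcl16, a chemokine that the series names, stood at 8.96, 7.14 and 3.76 against 38.6, 22.4 and 25.0 normalised counts, on 20 reads in sgB2m and 84 in sgNT, and its log2 fold change was -1.99 ± 0.45, SE, adjusted p = 0.00433. Cxcl16 passed the filter only through its sgNT libraries, so its direction was set by the filter. Bulk RNA cannot tell fewer cells with a transcript from less of it per cell, here or in any result that follows.

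Of the 15882 tested genes, 3332 were higher in sgB2m (21.0%) and 3483 were lower (21.9%) at an adjusted p under 0.05 by limma, and 436 (2.75%) and 373 (2.35%) of them differed 2-fold or more. For 8336 genes (52.5%) all libraries of one guide lay above all of the other. The shares of 21.0% and 21.9% are to be set beside each list count below. The median log2 fold change of all tested genes was 0.01. Among the genes named by size of change, the highest was Trim69, a ubiquitin ligase gene whose counts were 135, 129.6 and 94.1 in sgB2m and 9.92, 9.73 and 7.70 in sgNT, for a change of 3.57 ± 0.27, SE, adjusted p = 3.15e-06 on the log2 scale. Trim69 passed the filter only through its sgB2m libraries, so its direction was set by the filter. In mm10 Trim69 occupies chromosome 2 from 122160700 to 122179027 (plus strand). It is the next tested gene after B2m, which ends on the same strand at 122153083. The part of this position in the result was not tested. On the other side of B2m, Spg11 had a log2 fold change of -0.16 that did not pass (adjusted p = 0.126), and Sord, farther along from Trim69, rose by 0.52. Spg11 and Sord are named as neighbours, after their values were seen. Lilr4b, a leukocyte immunoglobulin-like receptor gene with a close paralog that could share reads, stood at 221, 210.2 and 216 against 19.8, 37.0 and 8.67 (3.46 ± 0.39, SE, adjusted p = 4.86e-05).

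The other genes at the top of the list had varied roles. Sema7a, a membrane-anchored semaphorin, stood at 19.8, 7.78 and 14.4 in sgNT and 94.5, 115 and 109 in sgB2m, a log2 fold change of 2.92. The list also held Sphk1, which makes sphingosine 1-phosphate (2.12), the secreted phospholipase gene Pla2g2d (2.25), the lipid kinase gene Pik3c2b (2.04), the sialic acid receptor gene Cd33 (2.09), Lrrc10b (2.38) and Rufy4 (2.09). The naming rule took only genes for which no library of one guide reached the range of the other, so the lack of overlap is not a result. At the bottom, the zinc finger gene Zfp385b fell from 99.2, 73.0 and 64.5 to 4.98, 16.3 and 3.76 normalised counts (log2 fold change -3.31). The sodium-proton exchanger gene Slc9a9 fell from 604, 604 and 726 to 97.5, 116 and 104 (-2.59), and the polarity gene Pard3b from 755, 869.8 and 833 to 124, 179 and 118 (-2.56). The bicarbonate transporter gene Slc4a4 (-2.54), Gdap1l1 (-2.49), Tspan2 (-2.39), the muscle-type cytochrome oxidase subunit gene Cox6a2 (-2.35), Akr1b7 (-2.24), Dthd1 (-2.18) and Flrt1 (-2.17) also fell. Their guides did not overlap either, by the same rule.

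NRF2 target genes had the largest share of rising members among the 126 lists with at least 5 tested genes. Of 31 tested, 25 rose, 3 fell and 3 did not pass, with a median log2 fold change of 0.45, against 21.0% rising and a median of 0.01 over all tested genes. Nqo1, a quinone reductase and the usual readout of NRF2, had 8803, 8335 and 8541 normalised counts in sgB2m and 3713, 3421 and 3637 in sgNT (1.25 ± 0.045, SE, adjusted p = 2.39e-08). The ferritin light chain gene Ftl1, which stores iron, more than doubled from 54415, 55847 and 53602 to 142330.0, 126636 and 129929 (1.28 ± 0.045, SE, adjusted p = 2.37e-08). In both genes the lowest sgB2m library lay above the highest sgNT library. The 3 members that fell were Hmox1, which breaks down heme, at 3339, 3216 and 3312 against 4699, 5148 and 4895 (-0.58), the cystine transporter gene Slc7a11 (-0.39) and the glutathione synthesis gene Gclc (-0.20). The 3 were named because they go against the list, after their values were seen. Slc7a11 is a long gene, and its log2 fold change was 0.11 once the length trend described below was removed.

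Glutathione S-transferases, which couple glutathione to reactive compounds, rose in 12 of 21 tested genes, and 0 fell. Gsta2 went from 15.4, 27.2 and 30.8 to 155, 125 and 134 normalised counts (2.50 ± 0.27, SE, adjusted p = 3.28e-05) and Gsta1 from 48.5, 46.7 and 60.7 to 236, 233 and 238 (2.17 ± 0.16, SE, adjusted p = 2.23e-06). Gsta4, which clears lipid peroxidation products, went from 357, 335 and 295 to 817, 795 and 741 (1.25), and Gstp1 and Gstp2 rose by 0.92 and 0.93. Gsta1 and Gsta2, and likewise Gstp1 and Gstp2, are near-identical copies between which reads could be split. Gsta1, Gsta2, Gsta4 and Gstp1 were also on the NRF2 list, so the lists overlap.

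**Figure D1:**
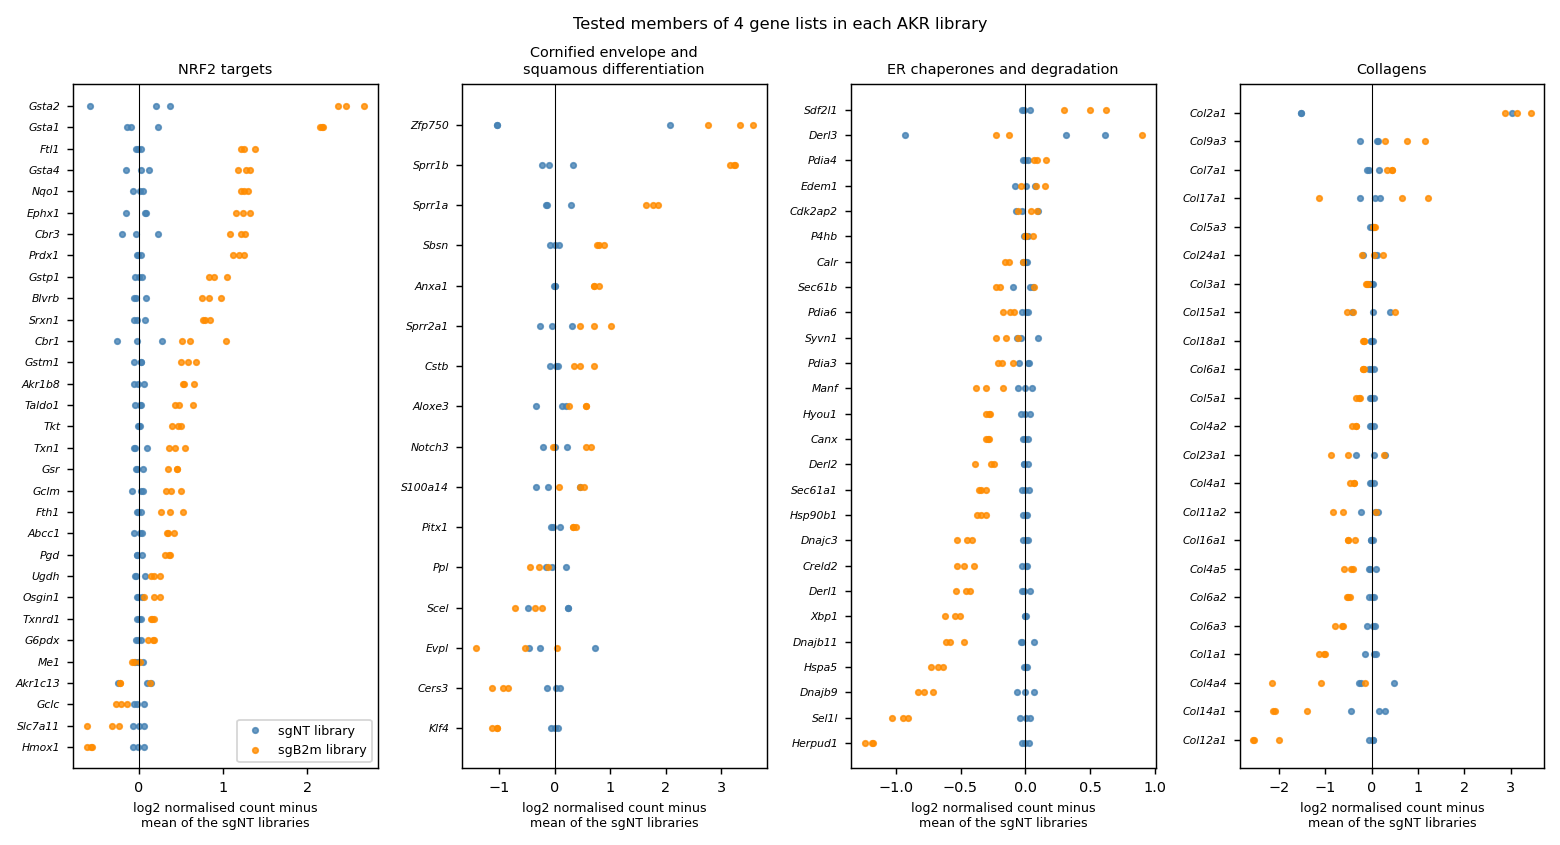
Each dot is 1 AKR library, plotted as its log2 normalised count minus the mean of the 3 sgNT libraries (horizontal axis) for every tested member of 4 gene lists (vertical axis), with sgB2m in orange and sgNT in blue. NRF2 targets such as Gsta2 and Nqo1 had all sgB2m libraries to the right, ER chaperones such as Herpud1 and Hspa5 to the left, and the cornified envelope and collagen lists held members on both sides.

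Promoter sequences show which members carry the element the list is named for. The antioxidant response element core TGACNNNGC, read on both strands from 250 bases before to 50 after the RefSeq start, occurred in 8 of 26 NRF2 list members with a promoter (30.8%), in 3781 of all 27025 genes with a promoter and in 12.4% of all 32851 promoters. Among glutathione S-transferases it occurred in 3 of 19 genes (15.8%). Of those 8, 7 rose and 0 fell, and of the other 18, 15 rose and 1 fell. A match describes letters in a window and is neither a bound site nor a cause. The 250 bases before the start are given below for 3 members, in lower case with the element in capitals, 5′ to 3′ on the gene's strand, from RefSeq on GRCm38.p6. They were chosen for the element and after their values were seen: the peroxidase gene Prdx1 rose by 1.18, the glutathione synthesis gene Gclm by 0.40 and the thioredoxin reductase gene Txnrd1 by 0.16. Prdx1 lies at chr4:116685349-116685598, Gclm at chr3:122245307-122245556 and Txnrd1 at chr10:82858956-82859205, all on the plus strand, and all 3 hold the element in reverse.
Prdx1: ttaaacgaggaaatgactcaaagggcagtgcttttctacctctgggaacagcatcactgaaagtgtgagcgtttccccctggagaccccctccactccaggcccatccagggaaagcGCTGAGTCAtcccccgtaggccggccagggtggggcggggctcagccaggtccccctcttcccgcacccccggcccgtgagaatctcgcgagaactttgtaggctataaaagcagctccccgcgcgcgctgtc
Gclm: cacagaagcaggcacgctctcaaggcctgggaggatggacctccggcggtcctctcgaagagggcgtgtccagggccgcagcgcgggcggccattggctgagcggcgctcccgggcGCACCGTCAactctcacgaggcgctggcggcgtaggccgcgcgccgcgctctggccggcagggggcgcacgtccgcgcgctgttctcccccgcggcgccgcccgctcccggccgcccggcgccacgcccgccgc
Txnrd1: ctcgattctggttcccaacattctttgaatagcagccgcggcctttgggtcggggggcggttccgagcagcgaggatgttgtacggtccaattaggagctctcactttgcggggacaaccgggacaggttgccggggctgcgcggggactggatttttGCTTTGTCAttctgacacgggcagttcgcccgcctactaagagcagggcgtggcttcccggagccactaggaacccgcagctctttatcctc

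ER chaperones and ER degradation factors moved the other way. Of 26 tested, 17 fell, 1 rose and 8 did not pass, with a median log2 fold change of -0.29, against 21.9% falling over all tested genes. Herpud1, which helps to remove misfolded proteins from the ER, fell from 16526, 15876 and 16168 to 7188, 7121 and 6853 normalised counts (-1.20 ± 0.037, SE, adjusted p = 1.27e-08), and Sel1l, the adaptor of the ER ubiquitin ligase, from 10107, 9776 and 10286 to 4939, 5241 and 5371 (-0.96 ± 0.043, SE, adjusted p = 1.21e-07). Hspa5, the major ER chaperone BiP, had 78524, 73631 and 76323 against 120944, 122828 and 122168 (-0.68 ± 0.035, SE, adjusted p = 2.33e-07). All sgB2m libraries lay below all sgNT libraries in these 3 genes. The co-chaperone genes Dnajb9 and Dnajb11 fell by 0.77 and 0.56 on the log2 scale. Sdf2l1, an ER co-chaperone that was the only riser of the list, stood at 864, 794 and 690.5 against 576, 557 and 552 (0.47) and was named after its value was seen.

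The ER stress response element, CCAAT and CCACG with 9 bases of any kind between them, searched in the same way, occurred in 9 of 22 list members with a promoter (40.9%), in 0.137% of all genes and in 0.119% of all promoters. Of those 9, 6 fell and 0 rose, and of the other 13, 7 fell and 1 rose. Beside Hspa5, the glucose-regulated chaperone gene Hsp90b1 fell by 0.34, the kinase inhibitor gene Dnajc3 by 0.46 and the ER-resident factor gene Creld2 by 0.46 on the log2 scale. These 4 are shown because they hold the element and fell, and Hsp90b1, Dnajc3 and Creld2 were named after their values were seen. Hspa5 lies at chr2:34771840-34772089 on the plus strand, Hsp90b1 at chr10:86705445-86705694 on the minus strand with the element once on each strand, Dnajc3 at chr14:118937682-118937931 and Creld2 at chr15:88819396-88819645 on the plus strand, the last in reverse.
Hspa5: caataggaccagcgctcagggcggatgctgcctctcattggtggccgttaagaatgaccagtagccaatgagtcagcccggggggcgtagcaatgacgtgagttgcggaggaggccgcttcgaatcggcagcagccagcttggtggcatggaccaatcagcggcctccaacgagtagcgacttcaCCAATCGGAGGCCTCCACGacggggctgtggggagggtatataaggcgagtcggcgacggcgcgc
Hsp90b1: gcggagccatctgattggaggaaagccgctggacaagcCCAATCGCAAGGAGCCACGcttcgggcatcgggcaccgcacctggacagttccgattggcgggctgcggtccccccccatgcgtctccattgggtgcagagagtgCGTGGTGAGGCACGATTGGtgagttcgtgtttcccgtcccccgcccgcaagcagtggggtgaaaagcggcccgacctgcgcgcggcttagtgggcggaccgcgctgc
Dnajc3: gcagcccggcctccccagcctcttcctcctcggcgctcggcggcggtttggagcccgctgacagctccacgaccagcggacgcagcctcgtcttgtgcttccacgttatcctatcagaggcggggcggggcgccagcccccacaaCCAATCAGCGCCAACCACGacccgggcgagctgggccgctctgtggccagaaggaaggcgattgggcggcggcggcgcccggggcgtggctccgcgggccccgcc
Creld2: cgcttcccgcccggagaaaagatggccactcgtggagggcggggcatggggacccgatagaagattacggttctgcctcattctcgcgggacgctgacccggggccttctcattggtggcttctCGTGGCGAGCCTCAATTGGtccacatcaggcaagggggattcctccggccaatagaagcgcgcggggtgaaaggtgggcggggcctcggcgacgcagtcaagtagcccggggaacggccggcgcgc

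Genes of amino acid supply and tRNA charging fell more often than they rose. Of 37 genes of the ATF4 amino acid response, 33 fell and 1 rose, led by Fgf21, a secreted stress hormone, at 249, 238 and 201 against 879, 844 and 930.3 normalised counts (-1.95). Of 37 aminoacyl-tRNA synthetases, which load amino acids onto tRNAs, 19 fell and 3 rose, among them Wars for tryptophan (-0.68), Lars for leucine (-0.55) and Iars for isoleucine (-0.47). Of 28 amino acid transporters of the SLC families, 14 fell and 4 rose. The glycine transporter gene Slc6a9 fell from 3924, 4139 and 4130.5 to 2129, 2225 and 2415 (-0.85) and the alanine and serine transporter gene Slc1a4 by 0.77 on the log2 scale, whereas the creatine transporter gene Slc6a8 rose from 2019.7, 2071 and 2168 to 4036, 4034 and 4171 (0.97). The lists share members with the ATF4 list and are not independent of it.

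Genes of protein breakdown rose more often than they fell. Of 34 constitutive proteasome subunits, 22 rose and 1 fell (14 rose in a fit with no intensity trend), with small changes, the largest being Psmd8, a lid subunit, at 9599.9, 9062 and 9165 against 6126, 6057 and 5925 (0.62 ± 0.039, SE, adjusted p = 9.63e-07). Of 42 lysosomal and V-ATPase genes, 25 rose and 4 fell. Gla, the lysosomal alpha-galactosidase gene, doubled from 743, 895 and 819.5 to 1731, 1571 and 1676 (1.02 ± 0.076, SE, adjusted p = 2.55e-06), the sialidase gene Neu1 rose by 0.63, and Ctsd, the aspartic protease cathepsin D, rose by 0.43. The CLEAR core TCACGTGA, which reads the same on both strands and contains the E-box CACGTG, is the element of the lysosomal regulator TFEB. It occurred in 7 of 32 list members with a promoter (21.9%), in 1.12% of all genes and in 0.974% of all promoters, and 5 of the 7 rose and 0 fell, against 14 and 4 of the other 25. The promoters of Gla (chrX:134601006-134601255, minus strand) and Ctsd (chr7:142387828-142388077, minus strand) are shown as the 2 named lysosomal genes that hold it.
Gla: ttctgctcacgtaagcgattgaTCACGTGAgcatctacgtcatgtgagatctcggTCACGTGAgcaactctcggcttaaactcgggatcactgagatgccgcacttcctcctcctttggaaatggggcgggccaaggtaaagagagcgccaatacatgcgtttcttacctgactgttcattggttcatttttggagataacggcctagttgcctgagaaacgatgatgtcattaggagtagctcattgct
Ctsd: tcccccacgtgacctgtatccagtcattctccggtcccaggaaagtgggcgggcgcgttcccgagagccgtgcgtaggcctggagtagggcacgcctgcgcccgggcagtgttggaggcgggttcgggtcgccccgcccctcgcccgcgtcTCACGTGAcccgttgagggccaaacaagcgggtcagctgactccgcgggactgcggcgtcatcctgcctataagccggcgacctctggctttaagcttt

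Cholesterol synthesis genes rose in 15 of 25 and fell in 4. Dhcr7, the last enzyme of the pathway, went from 592, 502 and 621 to 1317, 1209 and 1328 normalised counts (1.17 ± 0.086, SE, adjusted p = 2.38e-06), and Hmgcs1, which acts just before the rate-limiting step, from 1968, 2019.9 and 2106 to 3439, 3254 and 3600.0 (0.76). Mvd, Hsd17b7 and Idi1 rose by 0.81, 0.79 and 0.77. Cytosolic heat shock proteins rose in 19 of 41 and fell in 7. Cryab, the small heat shock protein alpha-B-crystallin, rose from 165, 219.9 and 166 to 654, 601 and 681 (1.82) and Hspb1 from 1502, 1429 and 1376 to 3141, 2946 and 2829.6 (1.05). Iron genes split: Ftl1 and the ferrireductase gene Steap3 (1.40) rose, Cp, the copper oxidase ceruloplasmin, fell by 1.10, and the list held 5 higher and 9 lower genes of 19. In nucleotide metabolism, 15 of 32 rose and 7 fell. Ampd3, which deaminates AMP, tripled from 559.7, 650.0 and 582 to 1905, 2031 and 1821 (1.68), and the ribonucleotide reductase genes Rrm2 and Rrm2b fell by 0.77 and 1.03 on the log2 scale.

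Genes of squamous differentiation and epithelial contacts rose more often than they fell, beside 21.0% rising and 21.9% falling over all tested genes. Of 16 tested genes of the cornified envelope and squamous differentiation, 7 rose and 2 fell. Sprr1b, a small proline-rich protein cross-linked into the envelope, went from 8.81, 9.73 and 13.5 to 107, 109 and 102 normalised counts (3.22 ± 0.27, SE, adjusted p = 5.55e-06), and its paralog Sprr1a from 109, 79.8 and 79.0 to 322, 303 and 278 (1.76). Zfp750, a terminal differentiation regulator, was near the detection limit at 0, 0 and 7.70 in sgNT and 12.9, 23.5 and 19.8 in sgB2m. Klf4, another differentiation factor, went the other way from 3103, 3362 and 3246 to 1580.1, 1475 and 1570.0 (-1.07). Of 13 keratins, 7 rose and 0 fell. Zfp750 and the keratin gene Krt16 passed the filter only through their sgB2m libraries, so their direction was set by it. Krt16, a keratin of stressed epidermis, was at 0, 7.78 and 5.78 in sgNT and 34.8, 52.0 and 49.9 in sgB2m (3.55), Krt20 rose from 158, 213 and 161 to 575, 471 and 546 (1.59), Krt13, the keratin of the esophageal lining, from 189.5, 212 and 208 to 456, 467 and 476 (1.20), and Krt8 by 0.54. The summed level of the 4 epithelial markers Cdh1, Epcam, Krt8 and Krt18 was 31454 to 33982 in sgB2m and 23165 to 23912 in sgNT, and nearly all of it came from the keratins Krt8 and Krt18. Epcam lay between 34.7 and 78.1 normalised counts and Cdh1 at or near 0. The intestinal marker gene Cdx2 and the hepatocyte marker gene Afp were higher too, so the rise was not limited to squamous genes. The summed level of Cdx2, Vil1 and Cdh17, mostly from Cdx2, was 320.3 to 381.1 in sgB2m and 220.5 to 264.7 in sgNT. Vil1 (2.82 to 10.95 in sgB2m, 3.85 to 8.81 in sgNT) and Cdh17 (17.87 to 37.81 and 6.74 to 34.16) overlapped between the guides. Afp stood at 232, 221 and 236 in sgB2m against 90.3, 136 and 79.9 in sgNT. The hepatocyte marker Apoa1 lay between 0 and 0.94, and Alb and Hnf4a were not analysed here. Krt20 is also on the intestinal marker list, and Krt8 is a simple epithelial keratin gene.

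Junction genes and epithelial regulators were counted in lists that overlap. Grhl2 is on both the epithelial adhesion and squamous regulator lists, and Cldn6 on both the epithelial adhesion and claudin lists. Of 18 epithelial adhesion genes, 10 rose and 3 fell. Dsp, the desmosome plaque protein desmoplakin, went from 1272, 1339.8 and 1333 to 2229.8, 2749 and 2768 (0.97 ± 0.079, SE, adjusted p = 5.18e-06). Connexins, the channels of gap junctions, rose in 4 of 6 and fell in 0, led by Gjb5 (1.63). Of 7 claudins, 3 rose and 2 fell, and the risers Cldn23, Cldn9 and Cldn6 stayed under 60 normalised counts in every library. Of 9 squamous regulators, 4 rose and 1 fell: Grhl2, which maintains epithelial genes, rose from 458, 360.0 and 417 to 777, 714 and 826 (0.91), whereas Sox2, an esophageal lineage factor, fell from 408, 406 and 403 to 199, 193 and 230.5 (-0.97). Of 21 S100 and annexin genes, 12 rose and 2 fell, with the calcium-binding gene S100a4 at 10381, 9224 and 9377 against 5602, 5823 and 5591 (0.77). Cldn6 and Cldn23 did not pass without the sgB2m library numbered 2 or 3, and 1 of 7 claudins rose then. St14, a membrane serine protease, fell from 25.3, 24.3 and 32.7 to 12.9, 6.12 and 0, but did not pass without any 1 of the sgNT libraries (adjusted p up to 0.0706).

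Collagens and laminins fell more often than they rose, and matrix metalloproteinases rose more often than they fell. The shares over all tested genes were 21.9% falling and 21.0% rising. Of 23 collagens, 13 fell and 2 rose, with a median log2 fold change of -0.36. Col12a1, a fibril-associated collagen, fell from 155, 164 and 166 to 26.9, 39.8 and 27.3 normalised counts (-2.36 ± 0.21, SE, adjusted p = 7.78e-06), Col14a1 from 78.2, 71.0 and 46.2 to 13.9, 14.3 and 23.5 (-1.86) and Col1a1, the main fibrillar collagen chain, from 714, 814 and 834 to 383, 359 and 393 (-1.05). Col3a1 was the most abundant fibroblast marker at 13278, 13552 and 13677 against 14556, 14242 and 14746, and its small change (-0.10, adjusted p = 0.032) was 0.02 under quantile normalisation. Col2a1, the cartilage collagen, was called higher, but its groups overlapped (23.9, 29.6 and 19.8 against 0, 0 and 22.1) and it did not pass without the sgNT library numbered 1 or 2 or the sgB2m library numbered 2 or 3. Of 10 laminins and nidogens, 5 fell and 1 rose, and Lamb1, a laminin beta chain, went from 5808, 5778 and 6318 to 3909, 4099 and 4039 (-0.57). Among 16 matrix metalloproteinases and inhibitors, 7 rose and 3 fell. Mmp10, stromelysin 2, rose about 5-fold from 500.2, 555 and 503 to 2521, 2585 and 2609 (2.31 ± 0.062, SE, adjusted p = 7.41e-09), Mmp3 from 121, 154 and 191 to 382, 309 and 392 (1.23), and Mmp12, the macrophage elastase, was at 15.4, 8.76 and 0 in sgNT and 65.7, 51.0 and 74.3 in sgB2m.

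Targets and ligands of pathways that act on matrix and vessels also fell more often than they rose. Of 25 YAP and TEAD targets, 14 fell and 5 rose, with Ctgf, the connective tissue growth factor gene, at 451, 511 and 436 against 895, 821 and 852 (-0.88) and Ankrd1 lower by 0.68 on the log2 scale. Of 28 TGF-beta and BMP targets, 13 fell and 5 rose. Id2, an inhibitor of helix-loop-helix factors, fell from 755, 817 and 750.2 to 253, 302 and 229 (-1.57 ± 0.11, SE, adjusted p = 1.48e-06) and Tgfbi from 821, 799.8 and 705 to 308, 354 and 317 (-1.24), whereas Fst, the activin antagonist follistatin, rose from 4.41, 9.73 and 9.63 to 50.8, 24.5 and 21.6. Fst passed the filter only through its sgB2m libraries, so its direction was set by the filter. Of 22 genes of the VEGF, PDGF and angiopoietin family, 11 fell and 6 rose. Angpt1, the agonist of the endothelial receptor TIE2, fell from 232, 202 and 207 to 30.9, 66.3 and 29.2 (-2.42 ± 0.28, SE, adjusted p = 5.18e-05), and Angptl4 from 154, 122 and 131 to 30.9, 20.4 and 49.9 (-2.06). Igfbp4, which binds insulin-like growth factors, fell from 870.5, 893 and 881 to 242, 116 and 214 (-2.27), in a family in which 5 of 11 fell and 1 rose, but 4 fell and 4 rose with the length trend described below removed. Cytoskeletal targets of SRF and MRTF rose in 9 of 21 and fell in 6 (13 and 3 with the length trend removed), with Actb at 59136, 55712 and 55745 against 42477, 43362 and 42905 (0.41).

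Families of epithelial signalling held members that rose and members that fell, beside 21.0% rising and 21.9% falling over all tested genes. The falling shares of the EGF and Notch lists, 23.1% and 23.8%, lay near that of all tested genes. Of 13 EGF receptor ligands and ErbB receptors, 7 rose and 3 fell: the ligand betacellulin (Btc) rose from 637, 532 and 631 to 1114, 1198 and 1107 (0.93) and epiregulin (Ereg) by 0.44, whereas the receptor Egfr fell from 1202, 1129.6 and 1375 to 708, 944 and 785 (-0.61). In the Notch pathway, 9 of 21 rose and 5 fell. The ligand Jag1 rose from 612, 616 and 674 to 1204, 1176 and 1129.8 (0.88) and the feedback gene Nrarp from 221, 209 and 229 to 407, 391 and 399 (0.86), whereas Hes1, a classical Notch target, fell from 1199.9, 1077 and 1138 to 421, 410.1 and 531 (-1.33 ± 0.10, SE, adjusted p = 2.65e-06). Immediate early genes fell in 13 of 29, or 8 after quantile normalisation, and rose in 5, led by Atf3 (-1.24), Myc from 971, 929 and 1001 to 414, 451 and 428 (-1.16) and Fos (-0.67). Of 40 Gata, Runx, Ets, Klf and C/EBP factors, 22 fell and 6 rose. In growth machinery, 19 of 40 ribosome biogenesis genes fell and 5 rose, led by Utp20 (-0.75) and Wdr43 (-0.70), and 21 of 47 replication genes fell and 8 rose, led by Pola1, a DNA polymerase alpha subunit, at 929, 993 and 1014 against 2033, 2031 and 1951 (-1.03).

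Inflammatory genes went in both directions, beside 21.0% rising and 21.9% falling over all tested genes. Of 29 NF-kB targets, 13 rose and 3 fell. The monocyte chemokine gene Ccl2 rose from 4466, 4852 and 4463 to 12267, 10678 and 11050.2 normalised counts (1.30 ± 0.056, SE, adjusted p = 1.02e-07), the neutrophil chemokine gene Cxcl1 from 1638, 1587 and 1602 to 3375, 3262 and 3326 (1.04) and the feedback inhibitor gene Nfkbia by 0.84. Ccl7, a further monocyte chemokine gene, rose from 61.7, 71.0 and 72.2 to 246, 274 and 289 (1.97). Against these, the acute-phase genes Saa3 and Lcn2 fell from 159, 155 and 142 to 38.8, 7.14 and 18.8 and from 313, 308 and 273 to 164, 108 and 164. Interleukin genes split too: Il11, a member of the IL-6 family, rose from 191, 259.8 and 212 to 728, 588 and 629 (1.56) and Il1rn, the IL-1 receptor antagonist gene, from 40.8, 51.6 and 60.7 to 236, 216 and 204 (2.09), whereas Il23a fell from 169.7, 181 and 172 to 66.7, 34.7 and 27.3 (-2.10). Of 21 tested TNF receptor genes, 8 rose and 0 fell, led by the death receptor gene Tnfrsf21 (1.82) and the co-stimulatory receptor gene Tnfrsf4 (1.46).

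Class I heavy chain and interferon-gamma GTPase genes rose more often than they fell, beside 21.0% rising and 21.9% falling over all tested genes. Of 15 MHC class I and class I-like heavy chain genes, 9 rose and 2 fell, among them H2-T23, a ligand of NK cell receptors (0.51), Mr1, which presents metabolites (0.60) and Cd1d1, which presents lipids (0.66). H2 genes are near copies between which reads could be split. Of 23 interferon-gamma GTPase genes and regulators, 13 rose and 2 fell, led by Gbp8 from 6.61, 8.76 and 3.85 to 34.8, 33.7 and 35.8 and Ifi47 from 8.81, 19.5 and 28.9 to 59.7, 64.3 and 57.4. Gbp8 passed the filter only through its sgB2m libraries, so its direction was set by the filter. The MHC class II invariant chain gene Cd74 fell from 662, 709 and 711 to 277, 283 and 321 (-1.24 ± 0.088, SE, adjusted p = 1.96e-06). Of 5 tested myeloid marker genes, Cd68, a lysosomal protein of macrophages that other cells also make, rose from 2576, 2557 and 2450.0 to 7209.8, 6895 and 6807 (1.46 ± 0.044, SE, adjusted p = 9.64e-09), and Ly6g and Cd14 rose by 1.41 and 0.40. Csf1r and Mrc1 did not pass. The leukocyte genes Ptprc, Itgam and Lyz2 were at or near 0, at 0 to 3.76, 0 to 3.89 and 0 to 8.67 normalised counts. The summed level of these 3 and Csf1r was 10.2 to 34.8 in sgB2m and 8.8 to 14.6 in sgNT. Lck, a T cell and NK cell marker gene, was present at 39.5 to 61.2 normalised counts in sgB2m and 96.3 to 104.0 in sgNT. Of the 6 T cell and NK cell markers, the other 5 were not analysed here.

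Clock and ciliary genes were called lower at shares of 31.8% and 41.7%, against 21.9% of all tested genes, and neither reached 2 times that share. Of 22 circadian clock genes, 7 fell, 4 rose (18.2%, against 21.0% of all tested genes) and 11 did not pass, with a median log2 fold change of -0.02. The clock genes named next are the 5 called members with the largest changes, and none of the 4 risers is among them. Ciart, a repressor of the CLOCK-BMAL1 complex, fell from 2004, 2142 and 2202 to 628, 496 and 578 normalised counts (-1.90 ± 0.085, SE, adjusted p = 1.03e-07), the repressor gene Per2 from 582, 614 and 609 to 198, 224 and 246 (-1.43 ± 0.10, SE, adjusted p = 1.83e-06) and Arntl, which encodes BMAL1, from 2521, 2595 and 2517 to 1557, 1558 and 1532 (-0.72). Dbp and Nfil3, a pair of output factors with opposite action on the same sites, had log2 fold changes of -0.77 and -0.74, and both were called lower. The E-box CACGTG occurred in 5 of 17 clock genes with a promoter (29.4%), in 8.09% of all genes and in 7.15% of all promoters. Of these 5, only Ciart was called, and the 250 bases before its start (chr3:95882229-95882478, minus strand) hold 3 copies.
Ciart: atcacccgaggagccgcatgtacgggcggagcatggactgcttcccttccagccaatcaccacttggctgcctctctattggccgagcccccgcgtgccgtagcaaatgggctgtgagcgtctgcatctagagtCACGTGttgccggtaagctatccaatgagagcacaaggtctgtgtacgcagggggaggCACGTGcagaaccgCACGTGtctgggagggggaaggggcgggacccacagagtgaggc
Of 36 ciliary genes, 15 fell and 0 rose, led by Dync2h1, the motor of retrograde transport in cilia, from 1535, 1469 and 1585 to 658, 876 and 864 (-0.95), and by Cep290 (-0.73) and Ift172 (-0.61). In LLC1, 27 ciliary genes rose and 1 fell, against 20.7% and 21.8% of all genes tested in that line.

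**Figure D2:**
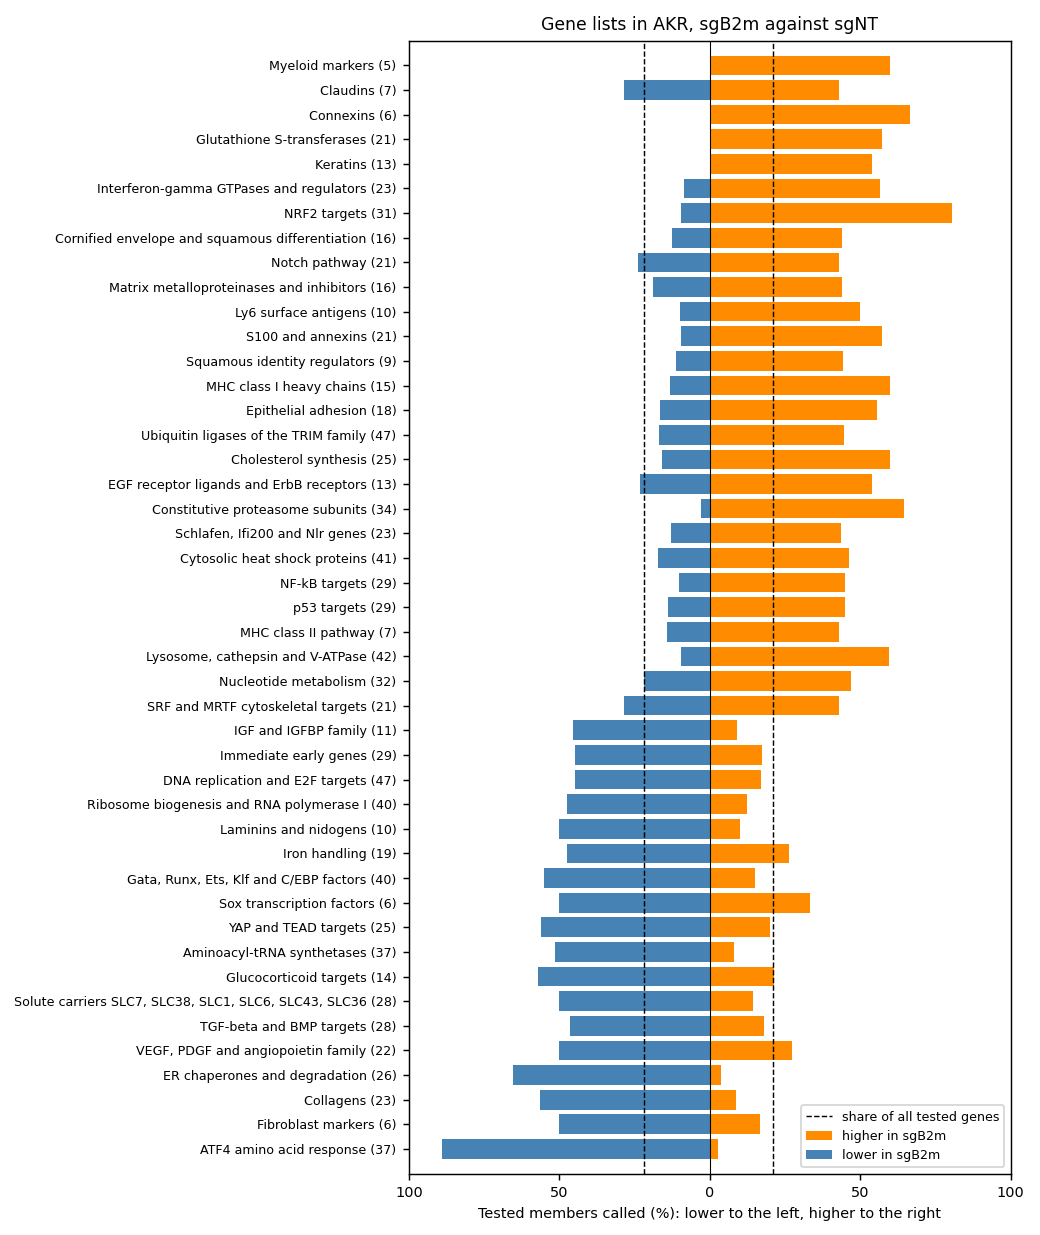
Bars give the percentage of tested members called lower (blue, to the left) and higher (orange, to the right) in sgB2m for the 45 lists whose share in 1 direction was at least 2 times the share of all tested genes, with the number tested in parentheses and dashed lines at 21.9% and 21.0%. The lists were chosen by these shares, from 33 of 37 ATF4 genes lower at the bottom to 25 of 31 NRF2 targets higher in the upper part.

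A total of 130 gene lists were counted, of which 126 had at least 5 tested members and 45 met the criterion for description. The other 81 had medians between -0.89 and 0.42, with 0% to 41.2% of members higher and 0% to 42.9% lower. The remaining lists of the 45, not described above, were p53 targets (13 of 29 rose, 4 fell), TRIM ubiquitin ligases (21 of 47 rose, 8 fell), Ly6 antigens (5 of 10 rose, 1 fell), Schlafen, Ifi200 and Nlr genes (10 of 23 rose, 3 fell), MHC class II pathway genes (3 of 7 rose, 1 fell), glucocorticoid targets (8 of 14 fell, 3 rose), Sox factors (3 of 6 fell, 2 rose) and fibroblast markers (3 of 6 fell, 1 rose). Among these, the glucocorticoid receptor gene Nr3c1 fell from 5520.2, 5249 and 5579.9 to 3329, 3821 and 3624 (-0.60) and the inflammasome sensor gene Nlrp3 rose from 186, 225 and 267 to 487, 561 and 509.9 (1.21).

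The change in AKR ran with gene length. Grouped by the genomic span from the first to the last annotated base, 650 protein-coding genes under 3 kb had a median log2 fold change of 0.11, and the median went down class by class to 0.09, 0.05, -0.05, -0.15 and -0.31, and to -0.67 in the 151 genes over 400 kb. In the shortest class 27.1% of genes rose and 10.3% fell, and in the longest 5.3% rose and 62.3% fell. The longest class lay below 0 in each sgB2m library, with medians of -0.45, -0.23 and -0.29 relative to the gene means, and above 0 in each sgNT library, at 0.34, 0.33 and 0.40. The median of genes over 200 kb minus that of genes up to 10 kb was -0.37, -0.12 and -0.20 in the sgB2m libraries and 0.24, 0.21 and 0.28 in the sgNT libraries. The groups did not overlap, and the difference of -0.47 had an exact two-sided permutation p of 0.1, the smallest that 3 against 3 libraries can give. The sgB2m library numbered 1, which stood apart from its group, had the strongest gradient, and without it the difference between long and short genes in the fitted changes was -0.42 instead of -0.47.

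**Figure D3:**
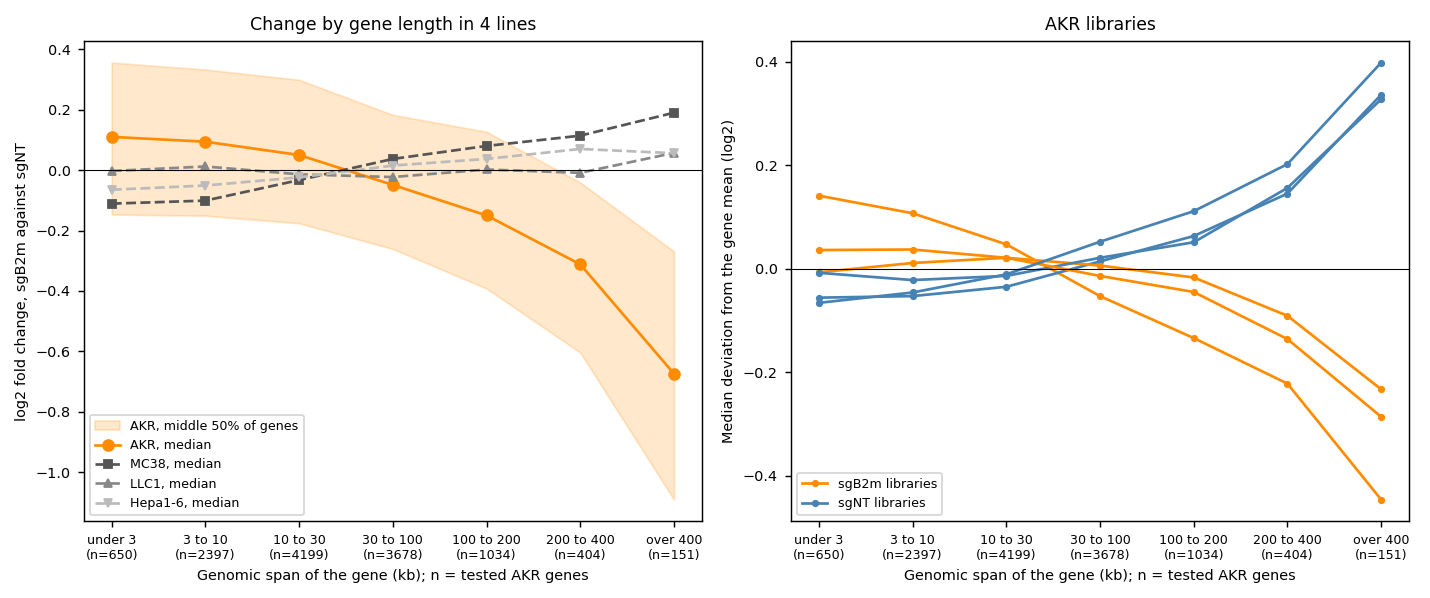
The left panel gives the median log2 fold change (vertical axis) of protein-coding genes in 7 classes of genomic span (horizontal axis) for AKR, with the range of the middle 50% of genes shaded, and for MC38, LLC1 and Hepa1-6. The right panel gives each AKR library's median deviation from the gene means, and the lines of the 2 groups cross and end at -0.45 to -0.23 in sgB2m and 0.33 to 0.40 in sgNT over 400 kb.

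The gradient was present in each of 3 equal classes of mean log2 value. Over 400 kb, the median was -0.67 in the lowest class, -0.65 in the middle class and -0.75 in the highest class, and between 200 and 400 kb it was -0.30, -0.30 and -0.32. It was also present among genes with short mature transcripts: with an exonic length at or under the median of 4463 bases, the median log2 fold change was 0.10 in genes of 3 to 10 kb and -0.28 in the 47 genes of 200 to 400 kb. Across 12513 protein-coding genes, Spearman's rho of the log2 fold change was -0.22 with genomic span and -0.22 with exonic length. Genes are not independent replicates, and the 2 lengths are related.

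The 20 longest tested genes show the spread behind the medians. They were taken by length, whatever their values. Of these, 8 fell, 1 rose and 11 did not pass, and 14 had a negative log2 fold change. Pde4d, a cAMP phosphodiesterase gene of 1.5 Mb, fell from 544, 576 and 499 to 208, 182 and 246 normalised counts (-1.35 ± 0.12, SE, adjusted p = 9.28e-06). Gpc6, a heparan sulphate proteoglycan gene of 1.05 Mb, fell from 493, 391 and 461 to 148, 155 and 129.8 (-1.63), and Dlg2, a synaptic scaffold gene of 1.97 Mb, from 47.4, 53.5 and 46.2 to 4.98, 13.3 and 11.3 (-2.30). Pard3b (-2.56), Prkg1 (-1.42), Cdh13 (-0.83), Zfhx3 (-0.53) and Sdk1 (-0.58) also fell, though Zfhx3 and Sdk1 turned positive with the length trend removed, at 0.13 and 0.06. Anks1b, of 1.10 Mb, was the exception and rose from 139.9, 140.1 and 139.6 to 319, 271 and 288 (1.06). Dmd, the dystrophin gene and the longest of all, had a log2 fold change of 0.14 that did not pass. A pair of long, mostly unspliced RNAs also fell: Airn went from 299, 247 and 282 to 119, 139.8 and 178 (-0.93) and Kcnq1ot1 from 732, 932 and 831 to 439, 580.5 and 531 (-0.69). Both RNAs overlap genes on the opposite strand, and the strand setting of the counting is not given in the sources used here.

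The other lines had gradients of other sign or size. In MC38 the median went from -0.11 under 3 kb to 0.19 over 400 kb, in LLC1 from 0.00 to 0.06 and in Hepa1-6 from -0.07 to 0.06. The difference between long and short genes was 0.24 in MC38, 0.01 in LLC1 and 0.14 in Hepa1-6, against -0.47 in AKR. In MC38 and Hepa1-6 the guides did not overlap either, with the same exact two-sided permutation p of 0.1 as AKR. For LLC1 that p was 0.6. In the fit of all 24 libraries, which tests the AKR change against the mean change of the other 3 lines gene by gene, 69.8% of the 86 genes over 400 kb were lower in AKR and 2.33% were higher, against 22.4% and 22.0% of all 12674 genes. In the class under 3 kb, 28.5% were higher and 7.94% lower. Removing the length trend within each library left 3387 genes higher (21.3%) and 3407 lower (21.5%). Several of the falling lists held longer genes than the median tested protein-coding gene (23.7 kb). The median span was 78.0 kb in collagens, 64.1 kb in laminins, 58.3 kb in the IGF and IGFBP family, 52.0 kb in ciliary genes and 37.2 kb in amino acid transporters, and between 25.0 and 32.9 kb in the fibroblast, YAP and TEAD, VEGF, transcription factor, clock, aminoacyl-tRNA synthetase and iron lists. With the trend removed, 11 of 23 collagens were lower and 2 higher, and their median was -0.19 instead of -0.36. For laminins 5 were lower and 1 higher, for ciliary genes 13 and 2, and for amino acid transporters 13 and 5. The IGF and IGFBP family had 4 lower and 4 higher, so its direction was lost.

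The fit of 24 libraries also tested single genes. Of 12674 genes that passed the filter in all 4 lines, 2787 changed more positively in AKR (22.0%) and 2844 more negatively (22.4%). The tables were normalised separately, so only differences within a line were compared. Sema7a had the largest positive difference, with log2 fold changes of 2.92 in AKR and -1.35, -0.45 and 1.48 in MC38, LLC1 and Hepa1-6 (difference 3.02 ± 0.30, adjusted p = 2.35e-08). Sphk1, Pik3c2b and Fndc10 rose in AKR and had negative log2 fold changes in each other line. Saa3 was the extreme in the other direction: -3.04 in AKR against 1.92, -0.43 and 5.00 (difference -5.20 ± 0.56, adjusted p = 7.82e-08). Col12a1 fell in AKR and had positive log2 fold changes of 4.02, 0.62 and 1.23 in the other lines (difference -4.31 ± 0.46, adjusted p = 6.28e-08), as did Cp (-2.42 ± 0.068, adjusted p = 1.25e-17) and the matrix protease gene Adamts1 (-2.23 ± 0.074, adjusted p = 2.05e-16). For B2m itself the AKR change did not pass the test against the others (difference 0.04 ± 0.05, adjusted p = 0.553).

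**Figure D4:**
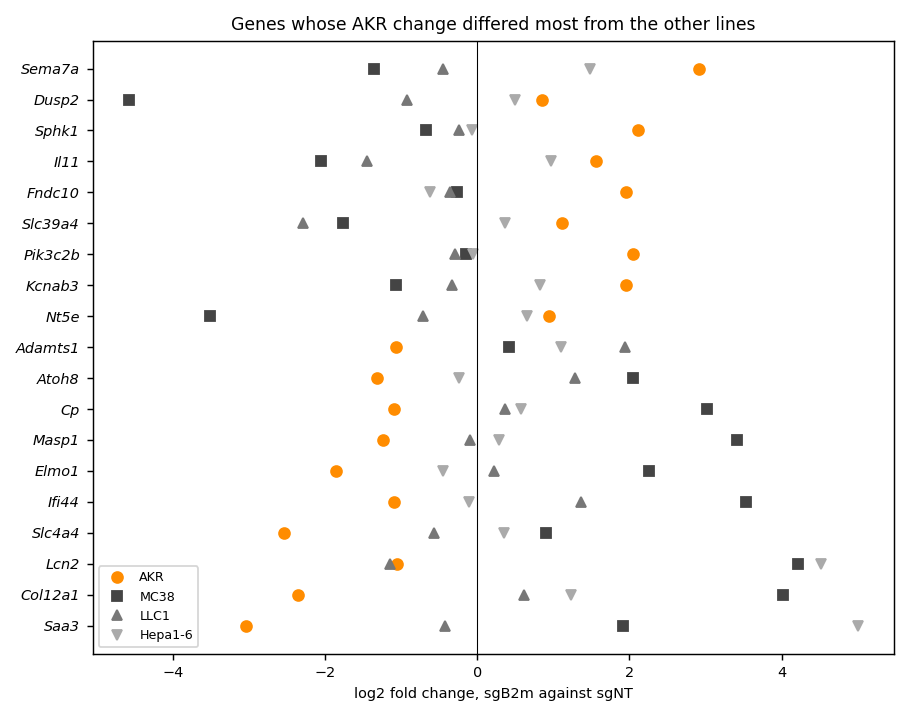
Log2 fold changes of sgB2m against sgNT (horizontal axis) in AKR (orange) and the other 3 lines (grey) for the named genes with the highest and the lowest differences between AKR and the mean of the others (vertical axis). Sema7a lay at 2.92 in AKR and Saa3 at -3.04, while the other lines lay on either side of 0.

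Lists that moved in AKR differed from the other lines to unlike degrees. Of the NRF2 targets tested in all 4 lines, 21 of 29 were higher and 3 lower in AKR than in the mean of the others, and of the proteasome subunits 29 of 34 were higher and 0 lower. Of the ER chaperones, 14 of 25 were lower and 2 higher. Within LLC1, however, 15 of 25 ER chaperones fell and 3 rose, and within Hepa1-6 12 of 25 fell and 4 rose. The ATF4 list fell in 33 of 37 genes in LLC1 too, but rose in 30 of 35 in Hepa1-6 and 16 of 37 in MC38. Glutathione S-transferases rose in 12 of 17 in LLC1, 4 of 16 in MC38 and 4 of 23 in Hepa1-6. A mean of 3 lines does not show which single line shares a change. For cholesterol synthesis, 8 of 24 were higher and 12 lower, and in LLC1 24 genes of that list rose and 0 fell. Of the ciliary genes, 18 of 35 were lower and 0 higher.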

How the data were processed

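RNA from cultured AKR cells was sequenced in 6 libraries, 3 with the sgB2m guide and 3 with the sgNT guide, and the libraries of MC38, LLC1 and Hepa1-6 cells were used only for the test between lines. The authors deposited 1 table per line of log2 normalised counts, with 1 added before the log. The submitters' processing notes name FastQC 0.11.5, STAR, DESeq2 and the build mm10, while the versions of STAR and DESeq2, the counter, the annotation and the strand setting are not given in the sources used here. Taken back to the linear scale, the deposited log2 values were whole multiples of 1 step per library, and 100% of them lay within 0.05 reads of a whole number, which gave the depth of each library. These reads served for depth alone, and all tests used the deposited log2 values.

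Genes that reached log2 3.5 in 3 or more of the 6 libraries were tested with limma 3.58.1 in R 4.3.3 (empirical Bayes with an intensity trend, Benjamini-Hochberg adjustment over all tested genes, called at 0.05), with no block. AKR was set against the mean change of the other 3 lines in a limma fit of all 24 libraries. Fold changes are differences between group means on the log2(count + 1) scale. The added 1 shrinks the change of low genes, whereas uneven libraries can make it larger than the ratio of mean counts. On simulated reads 100% of 2-fold and 97% of 1.5-fold changes and 0.0588% of unchanged genes were called, over 15503 genes. Only 100 genes were changed at each size, none of them at low counts, and every library was drawn with the same spread. The rates therefore do not describe low genes, the far larger share of called genes here or the sgB2m library that stood apart. The alternatives were a pseudocount of 8, no filter, a stricter filter, no trend, quantile normalisation, median centring, the replicate number as a block, each library left out, variance shared over 24 libraries and, chosen after seeing the data, removal of the length trend by lowess with a span of 0.3.

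The replicate numbers share only a number: deviations of same-numbered libraries correlated at -0.027, -0.022 and 0.024. Genes were named as the 15 highest and 15 lowest called changes with no overlap whose mean log2 value was 6 or more in the higher group, up to 5 called members per list with the largest changes, every tested member of lists of at most 12 where needed, the 10 highest and 10 lowest differences between lines, and cell type markers; other genes are said to be chosen after their values were seen. Some genes that this rule names are not reported here. A list was described where at least 5 members were tested and the share called in 1 direction was at least 2 times that of all genes, and clock, ciliary, chemokine, interleukin, complement and TNF receptor genes were described beside these. The gene lists and members were chosen with earlier results of these data known. Promoters are RefSeq sequences on GRCm38.p6, from 250 bases before to 50 after the start, matched by symbol. Figures and tables were made with Python 3.11.15.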

Additional observations from a re-analysis of the deposited data

Results flagged for a closer look

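The values here are differences between the log2 fold change in AKR and the mean of those in MC38, LLC1 and Hepa1-6, each tested in the limma fit of 24 libraries. A gene appears because that test of the difference passed. Of 12674 genes, 2787 changed more positively in AKR and 2844 more negatively, so a single gene on this list is 1 of many. Cxcl16, the chemokine the series names, differed by -1.94, on few reads in AKR.

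Genes that changed more positively in AKR included Sema7a (3.02), the MAP kinase phosphatase gene Dusp2 (2.52), Sphk1 (2.45), Il11 (2.41), Fndc10 (2.38), the zinc importer gene Slc39a4 (2.34), Pik3c2b (2.21), the potassium channel subunit gene Kcnab3 (2.14) and Nt5e, which makes adenosine from AMP (2.14). Genes that changed more negatively were Saa3 (-5.2), Col12a1 (-4.31), the siderophore-binding gene Lcn2 (-3.58), Slc4a4 (-2.77), the interferon-induced gene Ifi44 (-2.69), the Rac activator gene Elmo1 (-2.54), the complement lectin pathway protease gene Masp1 (-2.45), Cp (-2.42), the helix-loop-helix factor gene Atoh8 (-2.36), Adamts1 (-2.23), Igfbp4 (-2.01) and Tspan2 (-1.99).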

How the results depend on the processing

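The counts of called genes stayed within 1.5 times of 3332 higher and 3483 lower under each alternative run, with 2864 and 3922 under median centring. Leaving out 1 library at a time gave 2756 to 3160 higher and 2810 to 3497 lower. With the replicate number as a block, 3165 were higher and 3329 lower, so the pairing moved neither count by over 1.5 times. Counts of changes of at least 2-fold moved more: 272 higher and 230 lower with the stricter filter, and 186 and 152 with variance shared over 24 libraries, against 436 and 373. Both test fewer genes by construction, the latter only those that pass in all 4 lines. The difference between long and short genes was -0.47, from -0.536 to -0.415 without 1 library, and -0.054 with the length trend removed, as that step is built to do. Of the 594 called genes tracked here (those the naming rules or marker lists cover and those named after their values were seen), 114 lost their call or changed sign in some alternative, and 4 changed sign. Col3a1 was 0.021 under quantile normalisation, and Zfhx3, Sdk1 and Slc7a11 were 0.127, 0.062 and 0.112 with the length trend removed. Of 45 lists, 15 had a count in their leading direction that moved by over 1.5 times in some alternative, 13 of them with variance shared over 24 libraries. Leaving out 1 library moved that count for claudins alone, but moved the smaller count, in the other direction, for 15 lists. Of these, nucleotide metabolism went from 7 lower genes to 3 without the sgNT library numbered 1 and 4 without the sgB2m or sgNT library numbered 3, replication genes from 8 higher to 5 without the sgNT library numbered 1 or the sgB2m library numbered 3, and ribosome biogenesis from 5 higher to 3 without the sgNT library numbered 1. Lysosomal genes went from 4 lower to 2 without the sgB2m library numbered 2 or any 1 of the sgNT libraries. Interferon-gamma GTPase genes had 0 or 1 instead of 2 lower without any 1 of the libraries, and Sox factors 0 instead of 2 higher without the sgB2m library numbered 3 and 1 without the sgB2m library numbered 2 or the sgNT library numbered 3. In the clock list, 2 instead of 4 were higher without the sgNT library numbered 1. None of the 20 genes named against the other lines lost its call in an alternative that tested it. Only 11 of them were tested under the stricter filter, and the variance shared over 24 libraries was not an alternative for them. Low counts limit the genes near 0 in 1 group, and 3 libraries per guide limit any test on single values.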

Other observations

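Gene families that did not meet the criterion for description also held genes with large changes in AKR. The shares over all tested genes, to set beside each count in this section, were 21.0% higher and 21.9% lower. Mesenchymal state genes fell in 9 of 23 and rose in 3, but 6 fell and 3 rose with the length trend removed. The mesenchymal regulator gene Twist1 went up, at 806, 781 and 917 normalised counts in sgB2m against 535, 550 and 622 in sgNT. Fn1, the matrix glycoprotein fibronectin, went from 8857, 8451 and 9604 normalised counts in sgNT to 3219, 3798 and 3559 in sgB2m (log2 fold change -1.35). Integrins fell in 6 of 15 and rose in 4. The collagen-binding subunit genes Itga1 and Itga2 had log2 fold changes of -1.33 and -0.95, and Itgb3, a subunit of the vitronectin receptor, rose from 362, 358 and 394 to 681, 780.4 and 732 (0.97). In the hedgehog pathway 5 of 14 fell and 2 rose. The co-receptor gene Cdon fell from 1538, 1599.6 and 1714 to 714, 727 and 733 (-1.16), and the transcription factor genes Gli2 and Gli3 had log2 fold changes of -0.72 and -0.66, all called lower.

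Cell death and immune ligand genes were divided. Of 40 BCL2 family and caspase genes, 15 rose and 11 fell (6 without the sgB2m library numbered 3 or the sgNT library numbered 2, and 7 without the sgNT library numbered 3). Bik, a BH3-only promoter of apoptosis, stood at 14.9, 28.6 and 37.6 against 0, 5.84 and 9.63 (2.66 ± 0.81, SE, adjusted p = 0.0215), higher in sgB2m on few reads. Bik passed the filter only through its sgB2m libraries, so its direction was set by the filter. Bcl2, which holds apoptosis back, fell from 90.3, 112 and 85.7 to 39.8, 39.8 and 49.9 (-1.13). Among 15 checkpoint and co-stimulatory ligand genes 6 rose and 2 fell. Cd80, a ligand of CD28 and CTLA-4, rose by 1.31, Nt5e from 107, 152 and 91.5 to 219, 237 and 207 (0.94), and Cd47, the signal that restrains phagocytosis, fell from 5363, 5711 and 5494 to 4069, 4052 and 4021 (-0.45). Of 17 purine and adenosine receptor genes 7 rose and 5 fell (3 without the sgNT library numbered 1 or the sgB2m library numbered 2 or 3), with Adora1 at 122, 112 and 119 against 36.4, 28.2 and 51.0 (1.63). Of 17 class I peptide loading genes, 7 rose and 6 fell: the immunoproteasome gene Psmb9 rose from 108, 63.2 and 70.3 to 162, 145 and 140.2 (0.92) and the peptide transporter gene Tap1 by 0.61, whereas the editing chaperone gene Tapbpl had a log2 fold change of -0.71.

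Splicing and mitosis lists were counted as well. Of 77 splicing factors, 30 fell and 15 rose, led by the muscleblind genes Mbnl3 (-1.11) and Mbnl1 (-0.74) and by Srsf6 (-0.79) and Srsf2 (-0.77), a pair of serine and arginine-rich factors. Of 40 mitosis genes, 15 rose and 8 fell, with the kinase gene Plk1 (0.72) and the anaphase activator gene Cdc20 (0.67) higher, in contrast to the replication genes, of which 21 of 47 fell.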
